A study of Zea mays with 6 samples.

Results

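The transcripts described here are the nuclear transcripts that reached the highest levels in leaves of transgenic maize while standing at least 4-fold lower in control leaves. Members were the nuclear IDs with an FPKM (fragments scaled to the length of the gene and to the number of mapped fragments of the library) of at least 1000 in each of the 3 transgenic libraries and a mean transgenic FPKM + 1 of at least 4 times the mean control FPKM + 1. The rule leaves out 6 IDs that also meet both criteria, and 113 members remained of 33702 nuclear IDs and 33953 features in all. The members were chosen by these FPKM values, so level and fold are given below as a description, with no test.

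Leaves of 3 libraries from transgenic and 3 from control plants of the maize inbred line KN5585 were sequenced. The transgenic plants were engineered for the synthesis of poly-γ-glutamic acid, a water-binding glutamate polymer that bacteria of the genus Bacillus secrete. All plants of both genotypes were stressed at the 3-leaf stage by 5 days without water, at the end of which the soil held 9.8% water, and both genotypes carry the stress in every comparison below. The labels give neither the promoter of the transgene, nor how many independent transgenic lines were used, nor whether the libraries of a genotype came from separate plants, so the spread between libraries may be technical. FPKM summed to between 1226614 and 1238707 in transgenic and between 1208094 and 1226198 in control libraries. The number of reads behind these values is unknown, and counting error is therefore not given.

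In a green leaf a small number of nuclear genes supplies a large part of the messenger RNA. As general background, the best known of these encode light-harvesting proteins, subunits of the photosystems and enzymes of carbon fixation, whose proteins are made in the cytosol and imported into the chloroplast. In maize such transcripts are divided between the mesophyll and the bundle sheath, the pair of cell types that share C4 photosynthesis. The files name nuclear genes by ID only, and 0 of the 113 member IDs were found in the reference gene table used here, so which of these products a member encodes is not stated below. As a check of the tissue, the plastid genes psaA, which encodes a core protein of photosystem I, and psbA, which encodes the D1 protein of photosystem II, were looked up by locus tag. The FPKM of psaA was 41.8, 43.4 and 33.9 in transgenic libraries, against 4.39, 3.58 and 4.62 in control libraries. The FPKM of psbA was 1.85, 0.41 and 1.64 in transgenic libraries, against 165.8, 160.3 and 153.1 in control libraries. The FPKM of psaB, the partner of psaA, was 5.30, 6.84 and 4.73 in transgenic libraries, against 1.33, 0.80 and 0.90 in control libraries. All 3 genes were above 0 FPKM in every library, with psaA and psaB higher and psbA lower in transgenic leaves, and rbcL was not analysed here. The levels of psbA in transgenic and of psaB in control libraries were low and the depth is unknown. These values are therefore a weak check of the tissue. In whole leaves, fewer cells of a type and less RNA per cell cannot be told apart, which holds for every level below.

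The members made up most of the top of the transgenic transcriptome and a small part of the control one. They held 30.1, 30.4 and 31.5% of the summed FPKM in the transgenic libraries, against 1.94, 1.88 and 1.89% in the control libraries. Their mean share was 30.6 ± 0.738% in transgenic and 1.90 ± 0.0347% in control leaves (SD, n = 3 each), a ratio of 16.1. Of the 20 most abundant nuclear IDs of transgenic leaves 15 were members, and of the 100 most abundant 77 were. With the 6 left-out IDs these numbers were 19 and 83. The reverse rule, at least 1000 FPKM in each control library and 4-fold or more higher in control, found 61 IDs. It left out no IDs, where 119 IDs met both criteria in transgenic leaves before 6 were left out. Those 61 held 1.28 ± 0.0281% of FPKM in transgenic and 20.6 ± 0.402% in control leaves.

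**Figure D1:**
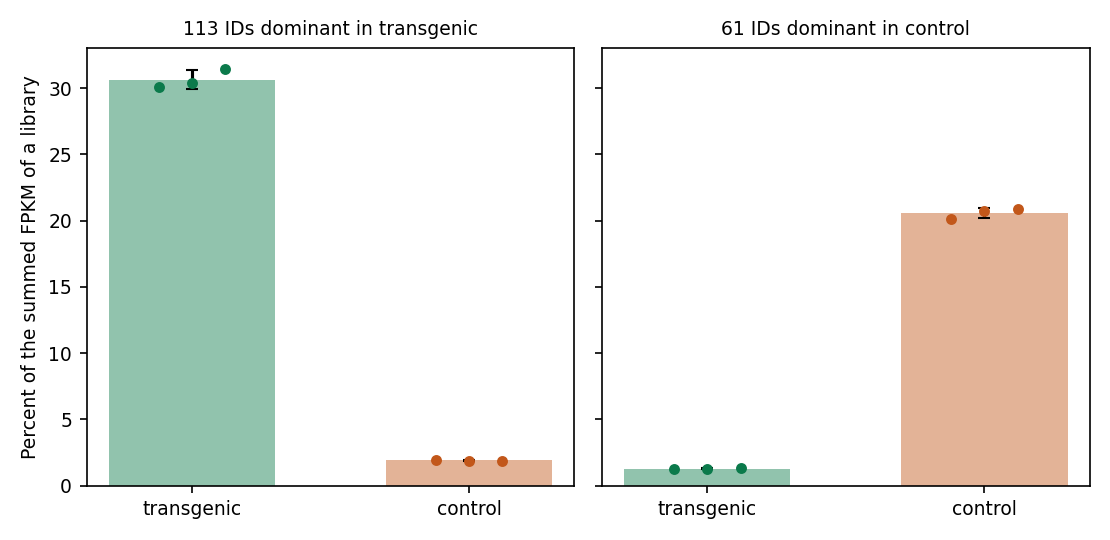
Percent of the summed FPKM of each library held by the 113 nuclear IDs dominant in transgenic leaves (left panel) and by the 61 IDs found by the reverse rule in control leaves (right panel). The reverse rule leaves out no IDs, unlike the rule for the 113. Bars are means, error bars the SD over 3 libraries and points the libraries; the 113 IDs hold 30.1 to 31.5% in transgenic and 1.88 to 1.94% in control libraries.

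Of the abundant nuclear transcripts of transgenic leaves, most also met the 4-fold criterion. Of 144 nuclear IDs with at least 1000 FPKM in each transgenic library, 119 met the 4-fold criterion and 25 did not, 12 of which had the higher mean in control leaves. Over all features tested, 1637 of 22200 were at 4-fold or more. The 144 were picked by their transgenic level alone, which favours IDs higher in transgenic leaves. Just inside the fold threshold stood Zm00001d011993 at 4.22-fold, Zm00001d049543 at 4.54-fold and Zm00001d049387 at 4.76-fold. Just outside stood Zm00001d043998 at 3.81-fold, Zm00001d044925 at 2.75-fold and Zm00001d022630 at 2.72-fold. The level threshold, by contrast, fell within a continuous range. The lowest transgenic library was at 1000.2 FPKM for Zm00001d020434 and at 1003 FPKM for Zm00001d044401 and Zm00001d044402, which were inside. It was at 995.6 FPKM for Zm00001d035337, 991.6 FPKM for Zm00001d039715 and 991.6 FPKM for Zm00001d027841, which were outside.

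**Figure D2:**
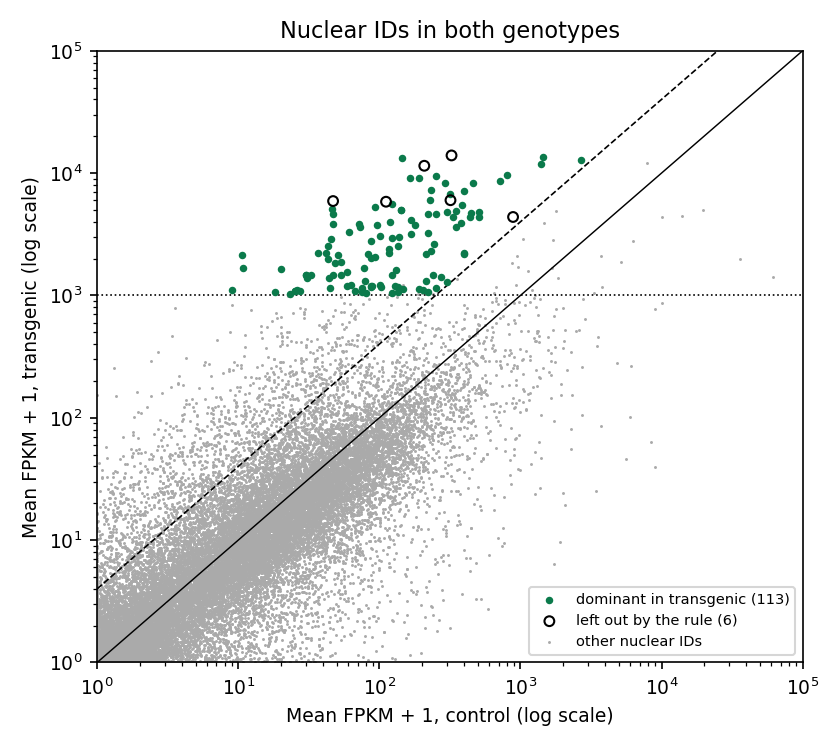
Mean FPKM + 1 of every nuclear ID in transgenic leaves (vertical axis, log scale) against control leaves (horizontal axis, log scale). The dotted line is the level threshold, the dashed line 4-fold and the solid line equality. The 113 members (filled points) and the 6 left-out IDs (open circles) lie above both thresholds, and a single other ID with the level lies between 3 and 4-fold.

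Mean levels of the members ran from 1030 to 13497 FPKM in transgenic leaves, with a median of 2207 FPKM, and from 8.03 to 2679 FPKM in control leaves, with a median of 122 FPKM. The folds ran from 4.22 to 203, with a median of 21.0 and quartiles of 11.97 and 42.5. On the log2(FPKM + 1) scale the median difference, transgenic minus control, was 4.39, against -0.31 over all 22200 features tested. In the limma fit over those features, all 113 members passed as higher in transgenic leaves, where 27.0% of features did. Another 45.9% of features passed as lower. The libraries of the genotypes did not overlap in any of the 113, where 28.0% of all features stood apart in that direction. The rule used this contrast, so nothing is read from either count. Scaling each library by the median of ratios moved the median of all features to 0.04 and that of the members to 4.78, so the members stood 4.70 above all features as deposited and 4.74 above them after scaling. Over all alternatives this distance ran from 4.24 with quantile normalization to 4.78 with a minimum mean of 5 FPKM. The median-of-ratios scaling also changed the balance of all calls, from 5996 higher and 10199 lower as deposited to 7998 higher and 7539 lower.

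**Figure D3:**
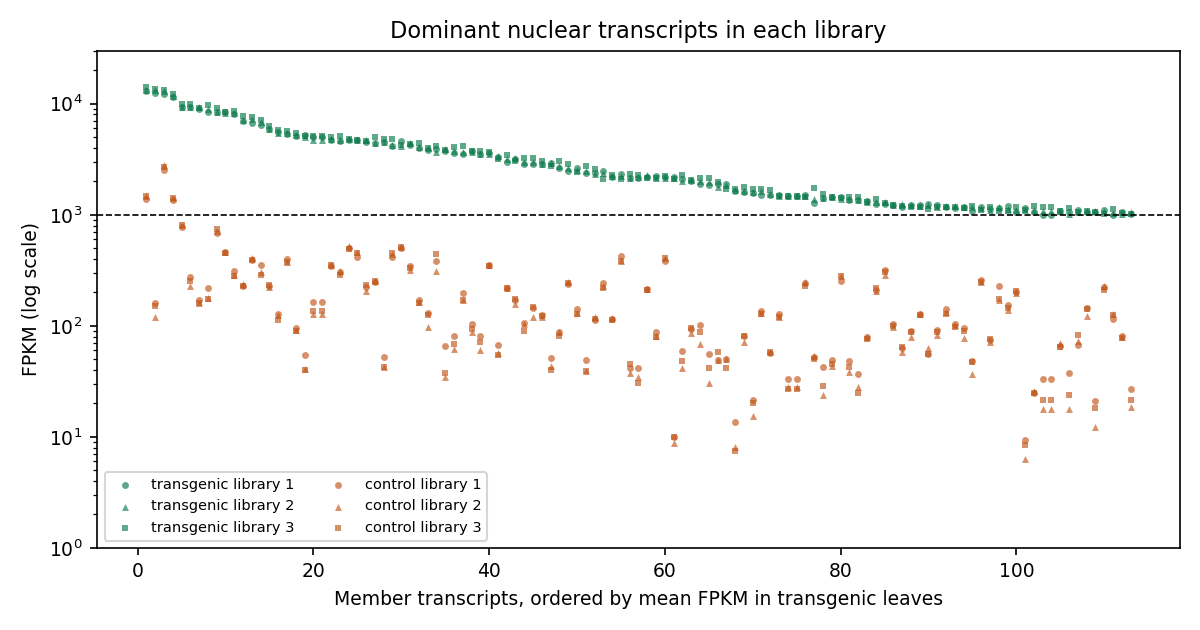
FPKM (log scale) of the 113 members in each library, ordered along the horizontal axis by mean level in transgenic leaves. Green symbols are the 3 transgenic and orange symbols the 3 control libraries, and the dashed line is the threshold of 1000 FPKM. The green symbols of a member nearly coincide, and the orange ones lie between 2820 and 6.3 FPKM and follow the order of the green ones in part (Spearman rho of 0.547 between the mean levels).

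The 10 most abundant members held 8.58 ± 0.274% of FPKM in transgenic and 0.675 ± 0.0103% in control leaves (SD, n = 3 each), and 25 members made up 50% of the summed level of all members. The most abundant member, Zm00001d039040, had 13017, 13231 and 14244 FPKM in transgenic libraries, against 1385, 1478 and 1467 FPKM in control libraries. The next, Zm00001d035859, had 12585, 13335 and 13569 FPKM in transgenic libraries, against 159.8, 118.9 and 149.5 FPKM in control libraries. For Zm00001d035859 the log2 difference was 6.53 as deposited and 7.31 with quantile normalization. The transgenic libraries of both members overlapped, while in control leaves the members were far apart, at ranks 64 and 1278 among nuclear IDs. Zm00001d049387 had 12115, 12898 and 13294 FPKM in transgenic libraries, against 2522, 2820 and 2696 FPKM in control libraries. It was the member with the highest level in control leaves, at rank 28, and the only one of the 10 under 5-fold. The fourth, Zm00001d021435, had 11590, 11676 and 12328 FPKM in transgenic libraries, against 1347, 1405 and 1421 FPKM in control libraries. Together with Zm00001d039040 and Zm00001d049387 it was 1 of 3 members that also reached 1000 FPKM in each control library.

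The next 6 members lay between 8371 and 9577 FPKM on average in transgenic leaves and between 163 and 797 FPKM in control leaves. Zm00001d046786 averaged 9577 ± 399 FPKM in transgenic and 797 ± 12.1 FPKM in control leaves (SD, n = 3 each), and Zm00001d015385 averaged 8666 ± 416 FPKM in transgenic and 716 ± 26.8 FPKM in control leaves (SD, n = 3 each). In both, the transgenic libraries lay far above the control libraries. Zm00001d038984 averaged 9498 ± 310 FPKM in transgenic and 252 ± 22.1 FPKM in control leaves, and Zm00001d018797 averaged 9040 ± 713 FPKM in transgenic and 191 ± 24.6 FPKM in control leaves. Zm00001d045620 averaged 9176 ± 131 FPKM in transgenic and 163 ± 6.37 FPKM in control leaves, a fold of 56.0. The least variable of the 10 was Zm00001d034543, with 8368, 8303 and 8441 FPKM in transgenic libraries, against 463.8, 457.6 and 455.0 FPKM in control libraries. Of the 9 pairs of neighbours in this order of 10, 7 had overlapping transgenic libraries, and so did 102 of the 112 pairs in the whole order, so exact places in the order are not resolved.

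The rule sets a lower limit on the transgenic level and none on the control level, so the range in control leaves is the wider one by construction. In control leaves 3 members averaged under 10 FPKM, 27 under 50, 52 under 100 and 106 under 500. Their ranks among nuclear IDs there ran from 28 to 13644, with a median of 1544, against ranks from 2 to 149 in transgenic leaves. Across the 113 members the mean levels in the genotypes had a Spearman rho of 0.547. The fold had a rho of -0.72 with the control level and of 0.139 with the transgenic level. These coefficients describe the members, share the same libraries and, for the fold, share a term, so they carry no p-value. Between libraries of the same genotype, log2 levels over the members gave Pearson coefficients of 0.995 to 0.999 for transgenic and 0.991 to 0.996 for control leaves. Between genotypes they were 0.580 to 0.620.

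The largest fold was that of Zm00001d004342, which had 2198, 2147 and 2110 FPKM in transgenic libraries, against 10.0, 8.80 and 9.97 FPKM in control libraries. Its log2 difference was 7.67 (SE 0.07), and all control libraries were close together. Next came Zm00001d042050, with 1644, 1661 and 1690 FPKM in transgenic libraries, against 13.7, 8.05 and 7.48 FPKM in control libraries. Its log2 difference was 7.32 (SE 0.18), with control library 1 well above the other two. The third, Zm00001d004348, had 1139, 1096 and 1104 FPKM in transgenic libraries, against 9.39, 6.30 and 8.39 FPKM in control libraries. These 3 were the members under 10 FPKM in control leaves, where the log2 difference depends on the pseudocount. For Zm00001d004348 it was 6.96 with a pseudocount of 1, 7.12 with 0.1 and 5.96 with 10. For Zm00001d004342 it was 7.80 with 0.1 and 6.79 with 10, and for Zm00001d042050 it was 7.46 with 0.1 and 6.42 with 10.

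Some members joined a large fold with a very high level. Zm00001d028471 had 5250, 5010 and 5110 FPKM in transgenic libraries, against 54.7, 40.6 and 40.3 FPKM in control libraries, a fold of 111. Zm00001d048998 had 4542, 4528 and 4815 FPKM in transgenic libraries, against 51.9, 42.7 and 42.4 FPKM in control libraries, a fold of 99.3. With Zm00001d035859 at 91.6-fold, they were the most abundant of the 10 members with the largest log2 differences. The remaining members among the 10 largest log2 differences were Zm00001d006540, Zm00001d013191, Zm00001d021620 and Zm00001d034179. Their folds lay between 60.1 and 82.1, and their mean levels between 1631 and 3837 FPKM in transgenic and between 19.0 and 45.8 FPKM in control leaves.

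At the other end, 13 members lay between 4 and 8-fold. Apart from Zm00001d049387, the members with the smallest folds were far less abundant in transgenic leaves than the 10 most abundant members. Zm00001d011993 had 1247, 1314 and 1274 FPKM in transgenic libraries, against 317.0, 285.9 and 303.2 FPKM in control libraries. Zm00001d049543, Zm00001d048201 and Zm00001d042257 averaged 1145 ± 46.2, 1062 ± 47.2 and 1418 ± 28.0 FPKM in transgenic leaves, against 252 ± 7.10, 221 ± 9.33 and 270.2 ± 15.99 FPKM in control leaves. Along the transgenic order, the median fold was 21.3 in the top 38 members, 24.96 in the middle 38 and 14.3 in the bottom 37.

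Several members shared values or stood next to each other by ID number. In 3 pairs the deposited FPKM was equal in every library, which were Zm00001d004344 with Zm00001d004346, Zm00001d033132 with Zm00001d033136, and Zm00001d044401 with Zm00001d044402. Whether the IDs of a pair share reads was not tested, and counting each pair once leaves 110 members. The pair Zm00001d033132 and Zm00001d033136 had 5054, 4742 and 5135 FPKM in transgenic libraries, against 164.0, 126.4 and 135.2 FPKM in control libraries. The pair Zm00001d004344 and Zm00001d004346 had 1480, 1463 and 1471 FPKM in transgenic libraries, against 33.1, 28.0 and 27.0 FPKM in control libraries.

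The ID numbers of 7 members followed each other directly, in 3 runs. In the longest, Zm00001d035001 averaged 3809 ± 244 FPKM in transgenic and 70.3 ± 9.17 FPKM in control leaves, and Zm00001d035003 averaged 5263 ± 207 FPKM in transgenic and 92.2 ± 2.78 FPKM in control leaves (SD, n = 3 each). Between them by number, Zm00001d035002 averaged 1318 ± 21.5 FPKM in transgenic and 78.2 ± 1.35 FPKM in control leaves. These 3 members were within about the same control range and differed in fold, at 53.5, 16.7 and 56.5 in order of their numbers. In the run of Zm00001d042049 and Zm00001d042050 the folds were 19.3 and 155. A further stretch, singled out after its values were seen, runs from Zm00001d004342 to Zm00001d004348. Its even-numbered IDs are 4 members of 48.5-fold or more, of which Zm00001d004344 and Zm00001d004346 have equal values in every library. The odd-numbered Zm00001d004343 was at 0.56, 0.74 and 0.54 FPKM in transgenic libraries, against 5.22, 2.64 and 4.69 FPKM in control libraries. Zm00001d004347 was listed at 0 in all, and Zm00001d004345 was not listed. Over all members, 145 other IDs in the files had a number next to that of a member. Of these, 133 averaged under 100 FPKM in transgenic leaves and 0 reached 1000, with a median of 4.78 FPKM in transgenic and 4.95 FPKM in control leaves. Members are not among these 145, and only 144 of all 33702 nuclear IDs reached 1000 FPKM in each transgenic library. Nothing is therefore read from these counts. No table used here places these IDs in the genome, so their distance is not known.

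The spread between libraries of a genotype was not part of the fold criterion. The level criterion did bear on it, since a member needed at least 1000 FPKM in each transgenic library. No such limit was set on single control libraries, so the spreads of the genotypes are not on an equal footing. The median coefficient of variation (CV, the SD as a percent of the mean) of the members was 3.83% over the transgenic and 5.68% over the control libraries. It was 1.84% without transgenic library 3 and 3.93% without control library 1. For the 25 IDs that reached the level but not the fold the median CV was 5.45% over the transgenic and 4.04% over the control libraries. A CV above 10% was seen for 1 member in transgenic leaves and for 38 members in control leaves. The member in transgenic leaves was Zm00001d014778, with 1273, 1375 and 1746 FPKM in transgenic libraries, against 52.9, 54.0 and 50.5 FPKM in control libraries. Here transgenic library 3 stood above the other two while control libraries were alike. The spread in control leaves followed the level, with a median CV of 16.8% for the 27 members under 50 FPKM and of 3.53% for the 37 members at 200 FPKM or more.

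Part of that spread was a higher level in control library 1. Of the 113 members, 69 (61.1%) were highest in control library 1, 24 in control library 2 and 20 in control library 3. Of 13499 other nuclear IDs within the same range of control levels, 35.8% were highest in control library 1. The excess was larger among members with larger folds. Control library 1 over the mean of control libraries 2 and 3 had a median of 1.02 for the 13 members between 4 and 8-fold, 1.01 for the 32 between 8 and 16-fold and 1.04 for the 29 between 16 and 32-fold. It was 1.23 for the 31 members between 32 and 64-fold and 1.25 for the 8 above that. Of the 39 members at 32-fold or more, 37 were above the mean of the other controls in control library 1 and 35 were highest there. All 3 pairs of members with equal values in every library are among these 35, with each pair counted as 2 members. Other nuclear IDs at 32-fold or more, 12 in number, had a median ratio of 1.13 with 66.7% highest in control library 1, while the 1567 IDs with a fold of 0.25 or less had a median of 0.974 with 25.7%.

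**Figure D4:**
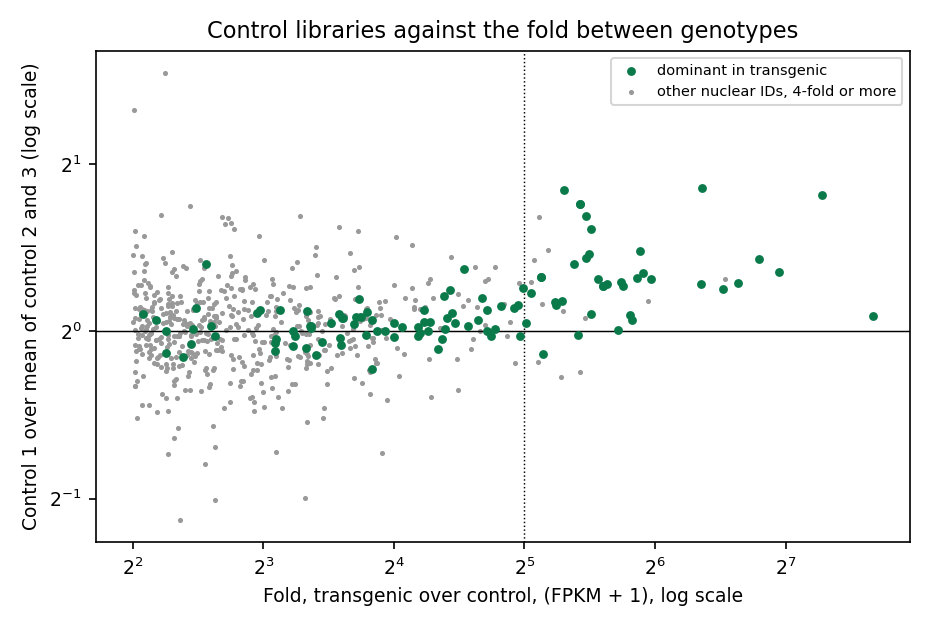
FPKM in control library 1 over the mean of control libraries 2 and 3 (vertical axis, log scale) against the fold between genotypes (horizontal axis, log scale), for the members (green) and for other nuclear IDs of 4-fold or more within the members' range of control levels (grey). Left of the dotted line at 32-fold, 9 of 13 members lie above 1 at 4 to 8-fold and 18 of 32 at 8 to 16-fold. At 16 to 32-fold 23 of 29 do, and right of the line 37 of the 39 members lie above 1.

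The members with the widest spread in control leaves showed this most. Zm00001d044399 had 1066, 1021 and 1141 FPKM in transgenic libraries, against 37.2, 17.7 and 23.8 FPKM in control libraries. Zm00001d006540 had 3788, 3889 and 3835 FPKM in transgenic libraries, against 65.2, 34.2 and 37.8 FPKM in control libraries. In both, as in Zm00001d042050, control library 1 alone was high. Without it the log2 difference was 5.64 in place of 5.37 for Zm00001d044399, 6.70 in place of 6.42 for Zm00001d006540 and 7.57 in place of 7.32 for Zm00001d042050. For the 39 members at 32-fold or more, the excess of control library 1 over the other controls was a median of 0.384% of the transgenic mean, with a range from -0.252 to 1.53%.

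In transgenic leaves the members were most often highest in library 3, which held for 70 of 113 (62.0%), against 29.1% of the 13499 other nuclear IDs in the same control range. Transgenic library 3 over the mean of libraries 1 and 2 had a median of 1.05 for members and of 0.969 for those other IDs. This went with the level, since library 3 was highest for 31 of the top 38 members, 24 of the middle 38 and 15 of the bottom 37. Of the 25 IDs with the level but not the fold, 14 were highest in library 3, with a median ratio of 1.04. Zm00001d008706 had 3522, 3639 and 4127 FPKM in transgenic libraries, against 196.9, 169.7 and 170.0 FPKM in control libraries. Zm00001d031899 ran the other way, with 2486, 2384 and 2087 FPKM in transgenic libraries, against 242.5, 227.9 and 218.0 FPKM in control libraries. What sets transgenic library 3 or control library 1 apart was not tested.

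The rule was also applied to 2 libraries per genotype and read in the pair of libraries left out. The members themselves had been chosen with all libraries. Chosen without the libraries numbered 1, 115 IDs were found, of which 112 met both criteria in the libraries left out, with a median fold of 18.8 there. Chosen without those numbered 2, 113 IDs were found and all 113 met both criteria in the libraries left out, with a median fold of 22.3. Chosen without those numbered 3, 116 IDs were found, of which 113 met both criteria, with a median fold of 20.7. A member meets the level in every transgenic library by construction, the left-out one included. In each round 113 IDs met the level in the library left out, and these were the members. The fold of a member was likewise set on means that include the left-out libraries. That members were found again, or met the level or the fold there, therefore says nothing of their stability. The lowest fold in a left-out pair was 3.92.

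The 6 IDs that the rule leaves out averaged between 4376 and 13942 FPKM in transgenic leaves, and 2 of them were within or above the range of the 10 most abundant members. The 6 held 3.86 ± 0.111% of FPKM in transgenic and 0.155 ± 0.00799% in control leaves (SD, n = 3 each). Zm00001d038163 averaged 13942 FPKM in transgenic and 324 FPKM in control leaves, above the most abundant member, and Zm00001d044099 averaged 11475 FPKM in transgenic and 207 FPKM in control leaves. Zm00001d046170 had 5975, 5853 and 5892 FPKM in transgenic libraries, against 59.6, 36.6 and 41.7 FPKM in control libraries, again highest in control library 1. Zm00001d052595 and Zm00001d004894 had folds of 18.8 and 52.3, and Zm00001d000316, at 4.94-fold, had the highest control level of the 6, 885 FPKM.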

How the data were processed

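RNA was measured in leaves of 6 libraries, made, per the labels, with a SMARTER mRNA kit from 1.3 µg of total RNA. Each deposited file holds the FPKM of 1 library, as the authors calculated it, with 2 decimals. How reads were aligned and counted, with which annotation and whether by strand, is not given in the sources used here. Mouse genome builds are named in the submitters' processing notes, which do not match the maize IDs, so no coordinates are given. Of nuclear IDs, 0 were found in the reference gene table, so no product, no list by function and no sequence is given. Groups and replicate numbers come from the labels.

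The rule for members was applied to the deposited FPKM. Features with a mean of at least 1 FPKM (22200) were fitted on log2(FPKM + 1) with limma 3.58.1 in R 4.3.3 (eBayes with trend, two-sided, Benjamini-Hochberg adjustment, threshold 0.05). SEs of log2 differences come from this fit. Its code was also run on simulated data with the same spread for all features and few changed ones. These data are unlike that in both respects, so the simulation does not vouch for the calls. Named members were those with the highest levels, the largest and smallest folds, the largest CVs, equal values or consecutive ID numbers, those next to a threshold, and the IDs left out by the rule. Members, lists and this rule were chosen with earlier results of these data known. Alternatives covered scaling, pseudocount, filter, thresholds, variance trend, replicate block and left-out libraries.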

Additional observations from a re-analysis of the deposited data

How the results depend on the processing

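The number of members, 113, depended on the level threshold, with 181 at 500 FPKM and 62 at 2000 FPKM, since fewer genes can pass a higher level. It was 127 with median-of-ratios scaling, 94 with quantile normalization and 85 with a total of 1000000 per library, 119 at 2-fold and 100 at 8-fold, 113 with pseudocounts of 0.1 and 10, and 113 to 116 when libraries were left out. Every library summed to more than 1000000 as deposited, so that total lowered all values and made the level threshold stricter. Without the 10 most abundant features of each library, members held 26.7% of FPKM in transgenic and 2.25% in control leaves; leaving out a library gave 30.2 to 30.9% in transgenic and 1.89 to 1.92% in control leaves. The median log2 difference of the members, 4.39, was 4.78 with median-of-ratios scaling, 4.16 with quantile normalization, 4.32 with a pseudocount of 10, and 4.36 to 4.44 with a library left out. The median CV of the members was 1.84 to 4.41% over transgenic libraries, the lowest without transgenic library 3, and 3.93 to 6.67% over control libraries, the lowest without control library 1. With the replicate number as a block, 113 members, 5935 features higher and 10087 lower passed. Same-numbered libraries deviated from their group means with correlations of 0.00588, -0.000753 and 0.0152, and the main fit used no pairing. All 570 values of the 38 named members under the alternatives of the limma fit stayed higher in transgenic leaves and past the threshold, as large differences chosen from these libraries would. Counting equal features once, an alternative chosen after seeing the data, gave 110 members, 30.0% in transgenic and 1.89% in control leaves. Causes were not tested. The absolute depth is unknown, so counting error at the lowest control levels could not be given.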
